A study of Mus musculus with 4 samples.

Results

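The genes described here encode the machinery that copies DNA: the complexes that mark replication origins, the helicase that opens the double helix, the polymerases, the sliding clamp with its loader, and the factors that join and repackage the new strands. They were chosen as a list of 51 gene symbols by role, not by a measured difference, although earlier results of these data were known. A gene was counted as measured where a probe set of the array mapped to its symbol alone, and the probe set with the highest mean stood for the gene. By this rule 47 of the 51 were measured among 12393 genes in all. Mcm8, Gins2, Gins3 and Chaf1a had no such probe set and were not analysed here.

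Enterocytes and stem cells from the proximal intestinal epithelium of C57BL/6 mice aged 4 to 6 weeks were compared on 4 Affymetrix arrays. The enterocyte group (2 arrays) held differentiated villus cells isolated with EDTA from mice with a conditional knockout of Atoh1 in the intestinal epithelium. The stem group (2 arrays) held Lgr5(hi) stem cells, sorted by flow cytometry from mice labelled wild type. Tamoxifen, at 1 mg per day for 5 days with 5 days of waiting, is given in the treatment labels of both groups, including the wild-type mice. The labels do not name the Cre driver of the knockout. Atoh1 is a transcription factor that secretory cells of the gut require. Its level was log2 5.06 and 5.28 in enterocyte arrays, against 7.43 and 7.71 in stem arrays, at least 2.53-fold lower (adjusted p = 0.00423); whether its probe set lies in the deleted part is not known here. Lgr5, the stem cell receptor used for the sort, was at log2 6.92 and 6.09 in enterocyte arrays, against 11.33 and 10.96 in stem arrays (-4.64 ± 0.36 SE; adjusted p = 0.00584). Cell type, genotype and way of isolation all differ between the groups, and their parts in any difference cannot be told apart. The labels call the samples biological replicates without naming animals, so p-values measure the spread between these samples only.

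Replication is prepared in G1 phase, when the origin recognition complex with Cdc6 and Cdt1 loads the Mcm2 to Mcm7 ring onto DNA. In S phase the kinase Cdc7, with its activator Dbf4, and the factors Cdc45 and GINS turn that ring into the active helicase. Polymerase alpha with primase starts each strand, and polymerases epsilon and delta extend them, held to DNA by the PCNA clamp. Many of these genes are transcribed under E2F factors as cells enter the cycle. In the intestine, Lgr5 cells at the crypt base divide, whereas villus enterocytes have left the cell cycle.

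The defining markers went with the labels: 9 of 9 measured stem cell markers fell and 8 of 8 measured enterocyte markers rose in the enterocyte arrays. Lymphocyte markers were higher as well, in 10 of 10 cases, with a summed intensity of 8726 to 11793 in enterocyte arrays and 638 to 892 in stem arrays. Paneth cell markers summed to 663 to 6070 in enterocyte arrays and 34448 to 47214 in stem arrays, and 2 of 4 passed the test as lower. All 5 measured markers of goblet cells were lower, summing to 437 to 617 in enterocyte arrays and 22681 to 24613 in stem arrays. Endocrine markers fell in 5 of 6 cases, while tuft cell markers rose in 3 of 4. The log2 ratio of the 3′ to the 5′ control probe set of beta-actin was 0.56 and 0.50 in enterocyte arrays, against 2.06 and 2.10 in stem arrays. For Gapdh the same ratio was 0.15 and 0.17 in enterocyte arrays, against 1.70 and 1.92 in stem arrays. The part of these admixed cells and of this 3′ bias in the differences below was not tested. In bulk RNA, fewer cells of a type and less RNA per cell cannot be told apart.

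Almost the whole replication machinery was lower in enterocytes. Of 47 measured members 41 fell, none rose and 6 stayed above the threshold (limma, adjusted p under 0.05 over all 12393 genes, n = 2 arrays per group), where 22.4% of all genes fell (2779) and 18.2% rose (2257). No member was below background in both groups, but 4406 of all genes were, which lowers the shares of all genes given here. With those genes left out, 44 members fell, where 36.9% of the remaining 7987 genes did. With the arrays centred on reference genes instead, the median of all genes shifted to -0.69, with 9233 genes lower (74.5%) and 1276 higher. Of the 8 measured reference genes, 4 were themselves called higher in enterocytes and 1 lower before this centring. All 47 members then fell. Their median relative to that of all genes was -1.77, unchanged by construction because centring shifts every gene alike. Without this centring, the median log2 difference, enterocyte minus stem, was -1.77 for the members and -0.0026 for all genes. A fitted fall of at least 4-fold was called in 18 members, against 3.66% of all genes; one of them, Cdc7, was below background in enterocytes and has a bound of only 3.70-fold. In 44 members both enterocyte arrays lay below both stem arrays, a pattern seen in 34.8% of all genes. The summed intensity of the members was 18913 to 20078 in enterocyte arrays and 56896 to 57296 in stem arrays. The calls of members and of all other genes rest on both stem arrays, and none held when either was left out. The members' median was -1.69 without stem replicate 1 and -1.70 without stem replicate 2. Without enterocyte replicate 1 27 members fell, against 8.54% of all genes, and without enterocyte replicate 2 22 fell, against 6.88%.

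**Figure D1:**
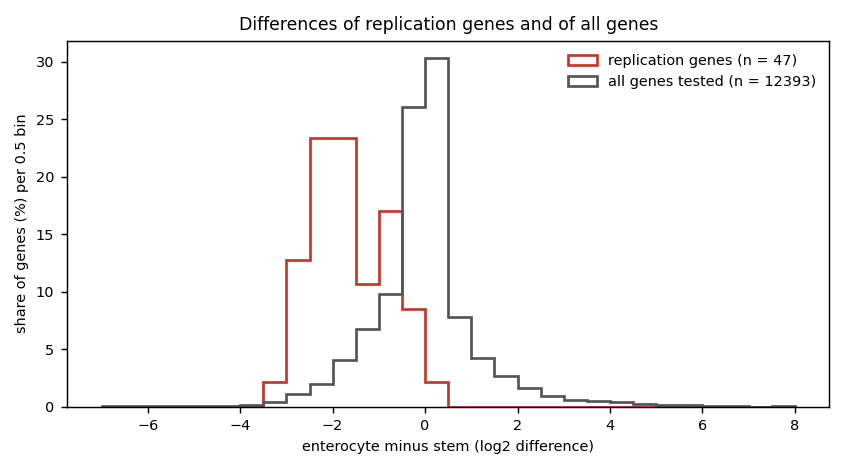
Share of genes, in percent per bin of 0.5, against the log2 difference between enterocyte and stem arrays, for the 47 replication genes and for all 12393 genes tested. The replication genes lie between -3.20 and 0.06 with a median of -1.77, while all genes centre near 0.

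Promoter sequence was not used to choose the members. The RefSeq promoter table (GRCm38.p6, windows from 250 bases before to 50 after a transcript start) held 39 of the 47 measured members. An E2F-type element, spelled TTTCCCGC, TTTCGCGC, TTTGCCGC or TTTGGCGC on either strand, was found in a window of 15 of these 39 genes (38.5%). The same words were found in 4.07% of the 9887 genes on the arrays with a window and in 2.6% of all 27025 genes with one. The CCAAT box, spelled CCAAT on either strand, was present in 20 of 39 members (51.3%) and in 42.3% of genes on the arrays. The cell cycle homology region, spelled TTTGAA on either strand, was present in 6 of 39 (15.4%) and in 15.4% of genes on the arrays. A match is a description of these letters and not evidence of binding, and overlapping matches were counted separately.

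Printed below are the last 170 bases before the start. Members with an E2F-type element in these bases that fell at least 2-fold are Mcm5, Mcm6, Mcm7, Pola1 and Cdc6. Orc1, Orc3 and Pole4 have such an element and a log2 difference between -1 and 0. Rfc3 does too (-0.67, element 10 bases before the start) but is not printed. Members whose elements begin only after the start are not printed either. Pcna is printed as a member in whose window no E2F-type element was found. Capitals mark the E2F-type elements, and each sequence runs 5′ to 3′ on the strand of its gene.
Mcm5 (chr8:75109339-75109508, plus strand): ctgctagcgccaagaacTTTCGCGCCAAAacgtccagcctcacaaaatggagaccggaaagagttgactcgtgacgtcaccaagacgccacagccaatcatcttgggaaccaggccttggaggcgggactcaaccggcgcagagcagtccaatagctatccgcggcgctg
Mcm6 (chr1:128359706-128359875, minus strand): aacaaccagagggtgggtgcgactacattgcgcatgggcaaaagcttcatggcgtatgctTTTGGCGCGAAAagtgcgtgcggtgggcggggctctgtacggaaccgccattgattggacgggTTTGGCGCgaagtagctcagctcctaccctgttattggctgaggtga
Mcm7 (chr5:138171884-138172053, minus strand): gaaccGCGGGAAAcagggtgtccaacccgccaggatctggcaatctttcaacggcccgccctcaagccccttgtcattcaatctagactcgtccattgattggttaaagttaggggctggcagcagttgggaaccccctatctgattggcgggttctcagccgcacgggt
Orc1 (chr4:108579284-108579453, plus strand): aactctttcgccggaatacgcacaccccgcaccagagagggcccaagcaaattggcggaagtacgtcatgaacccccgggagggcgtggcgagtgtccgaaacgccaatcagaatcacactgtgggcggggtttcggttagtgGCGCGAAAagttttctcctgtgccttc
Pcna (chr2:132253181-132253350, minus strand): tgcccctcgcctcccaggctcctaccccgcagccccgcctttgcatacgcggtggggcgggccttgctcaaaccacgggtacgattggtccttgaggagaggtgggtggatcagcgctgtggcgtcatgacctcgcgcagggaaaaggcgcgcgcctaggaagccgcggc
Pola1 (chrX:93632156-93632325, minus strand): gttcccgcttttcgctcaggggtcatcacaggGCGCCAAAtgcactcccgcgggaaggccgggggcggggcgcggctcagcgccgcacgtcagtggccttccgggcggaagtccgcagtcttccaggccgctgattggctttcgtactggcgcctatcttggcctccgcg
Cdc6 (chr11:98907981-98908150, plus strand): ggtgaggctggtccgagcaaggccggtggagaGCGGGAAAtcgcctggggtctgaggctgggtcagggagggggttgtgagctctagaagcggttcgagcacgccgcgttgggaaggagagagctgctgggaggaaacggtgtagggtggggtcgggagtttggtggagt
Orc3 (chr4:34614943-34615112, minus strand): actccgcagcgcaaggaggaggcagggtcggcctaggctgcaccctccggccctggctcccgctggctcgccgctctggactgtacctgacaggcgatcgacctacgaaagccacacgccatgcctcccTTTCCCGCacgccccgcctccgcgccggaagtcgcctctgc
Pole4 (chr6:82652875-82653044, minus strand): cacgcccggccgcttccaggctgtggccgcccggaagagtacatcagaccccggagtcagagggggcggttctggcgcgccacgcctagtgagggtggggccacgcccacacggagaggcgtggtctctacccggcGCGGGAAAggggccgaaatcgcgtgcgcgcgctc

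In Mcm6 a pair of overlapping elements begins 110 and 106 bases before the start, and another begins 47 bases before it. In Mcm5 the overlapping pair begins at 153 and 149 bases before the start. The element of Orc1 begins 27 bases before the start and that of Orc3 41 bases before it. Neither gene passed the test. Of the members with a window, 12 of 33 that fell and 3 of 6 that did not pass held the element.

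The helicase core fell in all 6 subunits, by 2.57-fold to 5.77-fold, with a median log2 difference of -2.13. Mcm7, a subunit of the ring, measured 1329 and 1078 intensity units in enterocyte arrays, against 7000 and 6818 in stem arrays. This gave the lowest difference of the ring, -2.53 ± 0.13 (SE; adjusted p = 0.00355). Mcm4 measured 541 and 426 units in enterocyte arrays, against 1171 and 1299 in stem arrays, the smallest fall of the ring at -1.36 ± 0.16 (adjusted p = 0.011). The enterocyte arrays were below the stem arrays for every subunit, with no overlap. Mcm2, Mcm3, Mcm5 and Mcm6 lay between these, at -2.40, -2.29, -1.77 and -1.96. All 4 probe sets of Mcm7 fell, at -2.53, -2.36, -2.03 and -1.78, whereas 2 of the 5 of Mcm3 did not pass (-0.08 and -0.95).

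Origin recognition was divided. Of the 6 subunits of the complex that binds origins, 3 fell (Orc2, Orc5 and Orc6) and 3 did not pass (Orc1, Orc3 and Orc4), with a median of -1.04. Orc1, Orc3 and Orc4 were lower under reference gene centring, as were 74.5% of all genes. Orc6, the smallest subunit, measured 137 and 126 units in enterocyte arrays, against 736 and 797 in stem arrays, a fall of 5.82-fold (-2.54 ± 0.08 SE; adjusted p = 0.00261). Orc2 and Orc5 fell 2.84-fold and 2.74-fold, but the call of Orc2 was lost with the median over probe sets (-1.06) and with its dimmest probe set. Orc3 measured 239 and 271 units in enterocyte arrays, against 295 and 268 in stem arrays. The groups overlapped, and the log2 difference was -0.14 ± 0.10 (adjusted p = 0.366). Orc4 measured 194 and 274 units in enterocyte arrays, against 274 and 295 in stem arrays, with a difference of -0.30 ± 0.21 (adjusted p = 0.348). Enterocyte replicate 2 had the same value as stem replicate 1, and enterocyte replicate 1 lay below both stem arrays. Orc1, which in mammals is itself controlled through the cell cycle, was dim in all arrays, at 52.3 and 51.9 units in enterocyte arrays and 67.6 and 95.7 in stem arrays. Its enterocyte level was below the background level of 75.2 units, and the difference of -0.63 ± 0.20 did not pass (adjusted p = 0.102). The other 2 probe sets of Orc3 passed the test over all probe sets as lower, at -0.50 and -0.60, the second of them below background in both groups, and the other 2 of Orc4 did not, at -1.33 and -0.59.

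All 3 licensing genes fell. Cdt1, which brings the Mcm ring to origins, measured 1129 and 1107 units in enterocyte arrays, against 3645 and 4042 in stem arrays, a 3.43-fold fall (-1.78 ± 0.08 SE; adjusted p = 0.00321). Gmnn encodes geminin, which binds Cdt1 and blocks a further round of licensing. It measured 1323 and 1290 units in enterocyte arrays, against 2108 and 2035 in stem arrays, and fell 1.59-fold (-0.66 ± 0.06 SE; adjusted p = 0.00657). Loader and inhibitor were both lower without overlap, the inhibitor by less; the difference between them was not tested. Cdc6, the ATPase that acts with the origin complex, measured 77.5 and 48.8 units in enterocyte arrays, against 170 and 188 in stem arrays. With the enterocyte mean below background it was at least 2.34-fold lower (adjusted p = 0.0271).

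The factors that fire origins fell in 6 of 6 measured cases, with a median of -1.73. Gins1, a subunit of the GINS complex that rides with the helicase, measured 161 and 146 units in enterocyte arrays, against 780 and 898 in stem arrays (-2.45 ± 0.11 SE; adjusted p = 0.00323). Gins4, of the same complex, measured 235 and 237 units in enterocyte arrays, against 441 and 424 in stem arrays (-0.87 ± 0.06 SE; adjusted p = 0.00448). The 2 measured GINS genes thus fell 5.46-fold and 1.83-fold, both without overlap between the groups. Cdc7, the kinase that phosphorylates the Mcm ring, measured 58.1 and 45.9 units in enterocyte arrays, against 290 and 268 in stem arrays, and was at least 3.70-fold lower. Its second probe set lay below background in both groups and gave 0.07. Dbf4, the activator of Cdc7, fell 4.26-fold, Mcm10 2.59-fold and the helicase cofactor gene Cdc45 1.90-fold.

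**Figure D2:**
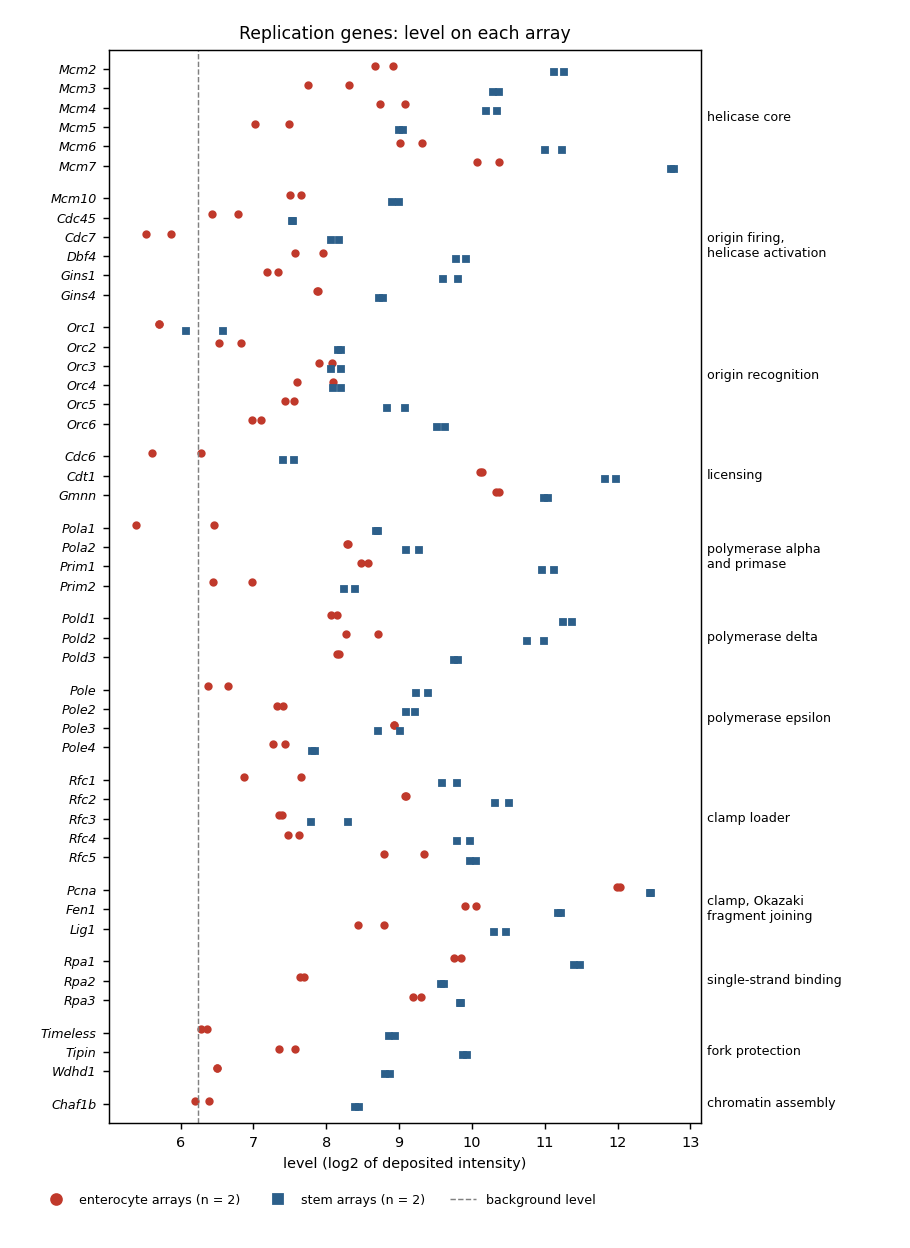
Level of each of the 47 replication genes on each array, as log2 of the deposited intensity, grouped by role (circles, 2 enterocyte arrays; squares, 2 stem arrays; dashed line, background level at 75.2 intensity units). Levels of different genes come from different probe sets and are not comparable; within a gene, circles lie left of squares for 44 of the 47.

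All 3 measured members for polymerase delta fell, with a median of -2.38. Pold1, the catalytic subunit of polymerase delta, measured 269 and 284 units in enterocyte arrays, against 2436 and 2647 in stem arrays. That was the lowest difference of all 47 members, -3.20 ± 0.08 (adjusted p = 0.00261), a 9.18-fold fall. Its second probe set gave -2.67. The accessory subunits Pold2 and Pold3 fell 5.20-fold and 3.08-fold. Pold3 measured 285 and 289 units in enterocyte arrays, against 898 and 867 in stem arrays (-1.62 ± 0.06 SE; adjusted p = 0.00265).

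Of the polymerase epsilon genes, Pole3 did not pass, but it was lower with the mean or median over probe sets. It was also lower under both centrings, where 74.5% and 67% of all genes were lower. Polymerase epsilon thus fell in 3 of 4 subunits, the exception being Pole3. Pole, its catalytic subunit, measured 101 and 83.2 units in enterocyte arrays, against 602 and 674 in stem arrays, a 6.95-fold fall (-2.80 ± 0.14 SE; adjusted p = 0.00341). Pole2 fell 3.46-fold. Pole3 and Pole4 encode the small histone-fold subunits, and Pole3 also belongs to a chromatin remodelling complex. Pole3 measured 487 units in both enterocyte arrays, against 516 and 419 in stem arrays. The stem arrays lay on either side of the enterocyte value, and the difference of 0.06 ± 0.13 was the only one of the 47 above 0 (adjusted p = 0.725). Of the other 2 probe sets of Pole3, one gave 0.06 and the other, which passed the test over all probe sets, gave -0.96. Pole4 measured 173 and 154 units in enterocyte arrays, against 224 and 231 in stem arrays (-0.48 ± 0.09 SE; adjusted p = 0.0282), a call lost with the replicate block and with quantile normalization.

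Polymerase alpha and primase fell in 4 of 4 cases. Pola1, the catalytic subunit, measured 41.9 and 88.3 units in enterocyte arrays, against 419 and 410 in stem arrays. The enterocyte replicates were 1.07 apart on the log2 scale, and the fall was at least 5.09-fold (adjusted p = 0.0198). Pola2, its regulatory partner, measured 313 and 315 units in enterocyte arrays, against 621 and 547 in stem arrays, the smallest fall of the complex (-0.89 ± 0.09 SE; adjusted p = 0.00844). The primase genes Prim1 and Prim2 fell 5.72-fold and 3.05-fold. Prim1, the catalytic primase subunit, gave -3.52 on its second probe set.

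The clamp gene and both measured genes of Okazaki fragment joining fell. Pcna, the clamp itself, measured 4075 and 4205 units in enterocyte arrays, against 5559 and 5642 in stem arrays. Replicates were close and the groups did not overlap, but the fall was 1.35-fold (-0.44 ± 0.05 SE; adjusted p = 0.0128). Lig1, the ligase that seals Okazaki fragments, measured 443 and 346 units in enterocyte arrays, against 1412 and 1262 in stem arrays (-1.77 ± 0.16 SE; adjusted p = 0.00736). Fen1, the nuclease that trims them, fell 2.33-fold.

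The clamp loader opens the PCNA ring and places it on DNA. Of its 5 subunits Rfc1, Rfc2 and Rfc4 fell, and Rfc3 and Rfc5 did not pass. Rfc3 and Rfc5 passed with the mean over probe sets, and under reference gene centring, where 74.5% of all genes were lower. The call of Rfc4 rests on 1 of its 2 probe sets: the other gave -0.82 and did not pass. Rfc1, the large subunit, measured 118 and 201 units in enterocyte arrays, against 892 and 773 in stem arrays (-2.43 ± 0.32 SE; adjusted p = 0.0141). Rfc3 measured 163 and 167 units in enterocyte arrays, against 222 and 314 in stem arrays, a difference of -0.67 ± 0.20 (adjusted p = 0.0878). Rfc5 measured 647 and 442 units in enterocyte arrays, against 1066 and 1004 in stem arrays, a difference of -0.95 ± 0.22 (adjusted p = 0.0509). In both genes the groups did not overlap, but 1 group's replicates were spread widely. The second probe set of Rfc3 did pass over all probe sets, at -1.21, and Rfc5 passed in 10 of 12 alternative settings that keep all 4 arrays.

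All 3 subunits of RPA, which coats single-stranded DNA, fell. Rpa2 measured 207 and 200 units in enterocyte arrays, against 784 and 760 in stem arrays (-1.92 ± 0.06 SE; adjusted p = 0.00261). Rpa3, the smallest subunit, measured 629 and 583 units in enterocyte arrays, against 921 and 917 in stem arrays (-0.60 ± 0.07 SE; adjusted p = 0.0102). Rpa1, the large subunit, fell 3.12-fold. The second probe sets of Rpa1 and Rpa2 gave -0.59 and -0.75, and neither passed.

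The fork protection genes fell together, within a narrow range of -2.58 to -2.35. Timeless and Tipin encode partners that steady the moving fork, and Wdhd1 links the helicase to polymerase alpha. Timeless measured 82.3 and 78.0 units in enterocyte arrays, against 465 and 492 in stem arrays (-2.58 ± 0.07 SE; adjusted p = 0.00261). Wdhd1 measured 90.1 units in both enterocyte arrays, against 449 and 468 in stem arrays (-2.35 ± 0.06 SE; adjusted p = 0.00261). Chaf1b, a subunit of the CAF-1 chaperone that lays histones on new DNA, measured 83.8 and 73.3 units in enterocyte arrays, against 349 and 337 in stem arrays. It fell 4.38-fold (-2.13 ± 0.09 SE; adjusted p = 0.0032). Its value in enterocyte replicate 2 lay below the background level of 75.2 units, while the enterocyte mean lay just above it.

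**Figure D3:**
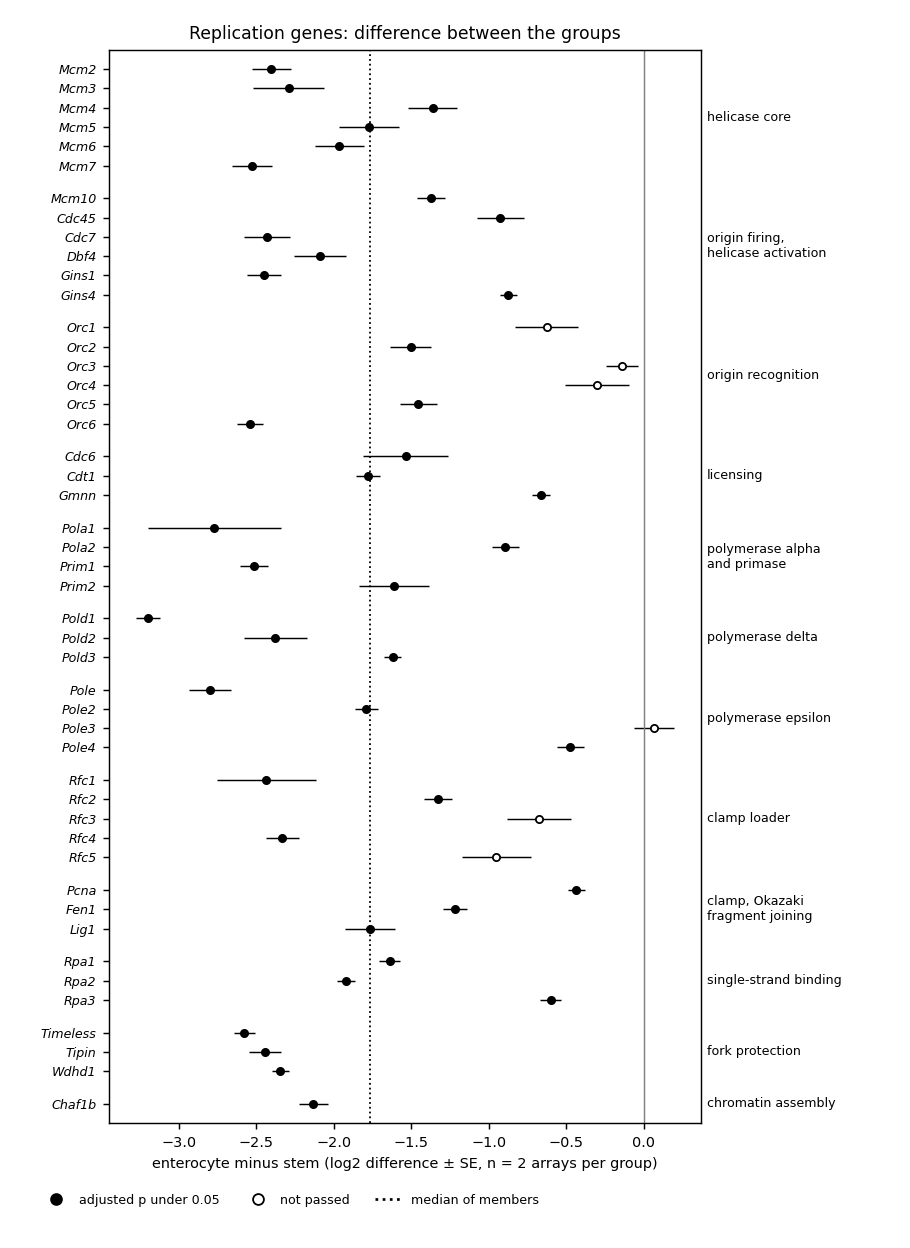
Log2 difference (enterocyte minus stem) with its SE for each of the 47 replication genes, grouped by role, n = 2 arrays per group. Filled points passed the test (41 genes) and open points did not (6 genes: Orc1, Orc3, Orc4, Pole3, Rfc3 and Rfc5). These 6 were lower under reference gene centring, as were 74.5% of all genes. The dotted line is the members' median, -1.77.

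Differences within a gene depended on the probe set. Of the 47 members 26 had several probe sets, and the spread between the probe sets of a gene had a median of 0.88 and reached 2.50 (log2) in Cdc7. Over all 84 probe sets of the members 64 fell, 0 rose and 20 did not pass, where 19.6% of the 20380 probe sets tested fell. Of the 37 probe sets that were not the brightest of their gene, 23 fell and 35 were below 0. Of these 37, 6 lay below background in both groups. In 12 of the 26 genes every probe set fell, among them Mcm2, Mcm7, Pold1, Prim1 and Timeless.

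**Figure D4:**
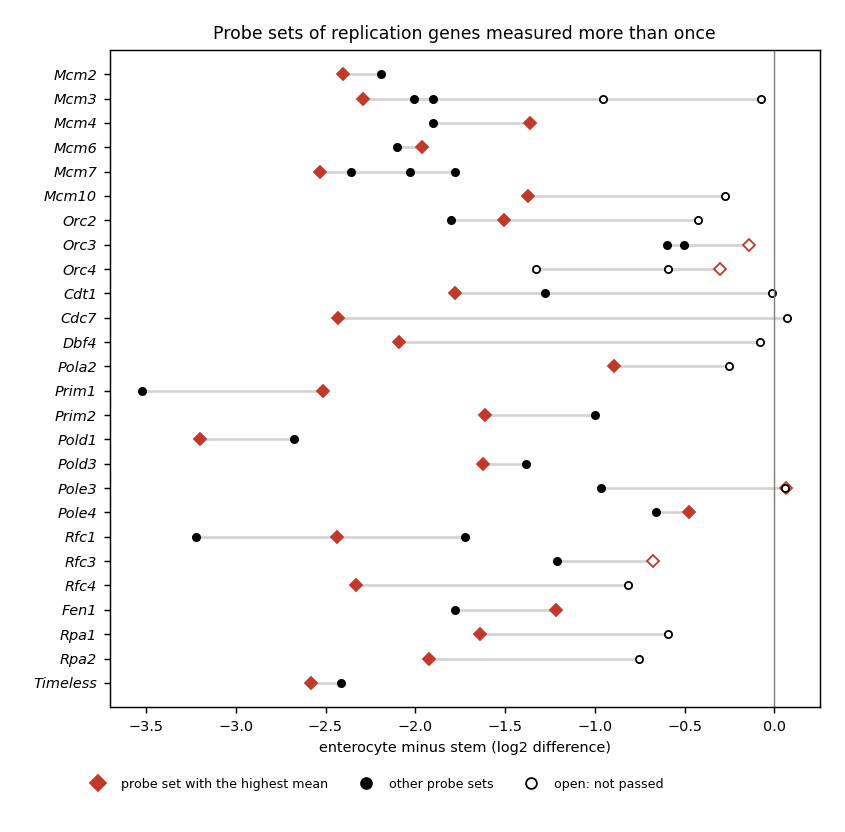
Log2 difference (enterocyte minus stem) of every probe set of the 26 replication genes with more than 1 (diamond, probe set with the highest mean; circle, other probe sets; open, not past the test over all probe sets). Probe sets of Mcm2 and Timeless lie close together, while those of Cdc7, Dbf4 and Mcm3 reach from below -2 to near 0.

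The enterocyte arrays also differed from each other in these genes. Enterocyte replicate 2 was below replicate 1 in 32 of 47 members, with a median difference of -0.11 between them, where 50% of all genes were below. Pola1, Rfc1 and Orc4 were among those that went the other way. The enterocyte replicates differed by more than 0.5 in 6 members, where 8.81% of all genes did, and the stem replicates in 2, where 4.14% did.

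Other replication genes, from a list that does not overlap the members, were mostly lower as well. Of 34 listed 27 were measured. Of these, 20 fell, 1 rose and 6 did not pass, where 22.4% of all genes fell and 18.2% rose. Their median was -1.71. Atr, the kinase that answers stalled forks, was below background in enterocytes and at least 4.41-fold lower (adjusted p = 0.00319). Rif1, a regulator of replication timing, measured log2 6.75 and 7.56 in enterocyte arrays, against 9.94 and 9.90 in stem arrays, and fell by 2.76 ± 0.32. Chek1, the checkpoint kinase downstream of Atr, fell by 2.68 ± 0.17. Uhrf1, which brings maintenance methylation to new DNA, fell by 2.54 ± 0.24. Pold4, the smallest subunit of polymerase delta, was the 1 gene that rose. Its levels were log2 8.48 and 8.61 in enterocyte arrays, against 7.36 and 7.06 in stem arrays, a rise of 1.33 ± 0.14 (adjusted p = 0.00928). The other polymerase delta genes, Pold1, Pold2 and Pold3, all fell. Mcmbp, which binds the Mcm ring, was at 0.12 ± 0.09 and Slbp, the histone mRNA binding protein, at -0.18 ± 0.13, neither past the test.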

How the data were processed

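Gene expression was measured on 4 Affymetrix arrays, 2 of enterocytes and 2 of Lgr5(hi) stem cells. The authors deposited normalized intensity values per probe set on a linear scale; RMA is named, without a version, per the submitters' processing notes, and no label says how arrays were scaled to each other. Log2 was taken of these values with no pseudocount. Values were equal on both enterocyte arrays in 1048 genes, Pole3 among them, and on both stem arrays in 1268. Of 22690 probe sets 64 were controls; the platform annotation gave 1 symbol to 20380 other probe sets. Entrez identifiers were matched to RefSeq names. Differences were fitted in R 4.3.3 with limma 3.58.1 (lmFit, eBayes) over all 12393 genes, two-sided, with Benjamini-Hochberg adjustment and a threshold of 0.05; the fit had 2 residual and 1.23 prior degrees of freedom. SE is limma's standard error. The background level, log2 6.23, was set at the 90th percentile over 24 genes that mark other organs, by mean level; 2 of the 24 were themselves called lower; "at least" marks folds against a group below it. Array medians were 102 to 111 units, and the number of arrays limits the precision. Only the limma fit was tested on simulated data, with large differences planted in bright genes.

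The members and lists were chosen with earlier results of these data known. Array values are given for the lowest and highest member of each role, for members that rose or did not pass, and for Atoh1 and Lgr5; up to 4 of the lowest and 2 of the highest other replication genes past the test are named. Other genes were named for their role after their values were seen. Alternatives covered the replicate block, left-out arrays, normalization, centring, probe set choice, dim genes, array weights and the prior variance. No protein sequences were used here.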

Additional observations from a re-analysis of the deposited data

How the results depend on the processing

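No member passed as higher under any of the 16 alternatives, and 30 members were called lower under all 12 that keep 4 arrays. With 1 array left out, the lone array is assumed to vary like the other group. Members lower then numbered 0 to 27, and their median was -1.87 to -1.63. Other replication genes lower numbered 0 to 11, and all genes lower 0 to 1058 and higher 0 to 663. Each of these fits leaves 1 residual degree of freedom, so that number cannot explain why their counts differ, and the cause was not tested. The 0 counts came without either stem array, by limma, with 4675 and 4817 genes at an unadjusted p under 0.05. The members' median was -2.46 with reference gene centring (9233 genes lower, 1276 higher) and -2.32 with reference difference centring, chosen after seeing the data (8298 lower, 1394 higher); both shift every gene by construction. It was -1.45 with the mean over probe sets, -1.50 with the median and -1.39 with the dimmest probe set. On the dimmest probe set 32 members and 13 other replication genes fell, as did 15.7% of all genes. There 9 members lost their call: Mcm3, Mcm10, Orc2, Cdt1, Dbf4, Pola2, Rfc4, Rpa1 and Rpa2. The dimmest probe sets of Mcm10, Cdt1, Dbf4 and Pola2 lay below background in both groups. The cause of the lost calls was not tested. Pole3 turned to -0.62 and -0.48 under these centrings, to -0.28 with the mean and to -0.66 with the median over probe sets. Cdc7 turned to 0.0719 on its dimmest probe set, which is below background. With the replicate block 41 members, 2557 genes lower and 2010 higher were called, and 19 other replication genes. Same-numbered arrays share only a number (r = 0.0504 between the replicate differences across 12393 genes, which are not independent).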
